A study of Mus musculus with 6 samples.

Results

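The miR-29 family was followed through the microRNAs (miRNAs) of exosomes, small vesicles that cells release, from bone marrow-derived macrophage supernatants. The rows examined were mmu-miR-29a-3p, mmu-miR-29b-3p, mmu-miR-29c-3p and mmu-miR-29b-1-5p, written without the mouse prefix from here on and taken by name as 4 of the 707 mature miRNA names in the count table. All 4 passed the filter on low counts, as did 254 names in all. There were 6 libraries, 3 labelled wild type (WT) and 3 labelled Roquin-1 san:san, both from C57BL/6 mice and with no treatment named for either. Roquin-1 is a protein that binds and destabilises messenger RNAs, and the mice labelled san:san carry its sanroque allele. Nothing in the labels ties a replicate to its own mouse or culture, so p-values reflect only how these samples vary, which may be technical.

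miRNAs are cut from a hairpin whose 2 arms, named 5p and 3p, each give a short RNA. One arm, the guide, is usually kept in Argonaute and pairs with target messenger RNAs through its seed, while the other, the passenger, is usually degraded. In the miR-29 family the 3p arm is the guide. miR-29 is known for repressing collagens and other matrix genes, the DNA methyltransferases Dnmt3a and Dnmt3b and the survival factor Mcl1, and it also acts in myeloid and lymphoid differentiation.

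The mature sequences below, from RefSeq on GRCm38.p6 and written 5′ to 3′, show why the 3p names are one family and why miR-29b-1-5p is a different RNA. Capitals mark the seed, bases 2 to 8.
miR-29a-3p: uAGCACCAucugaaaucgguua
miR-29b-3p: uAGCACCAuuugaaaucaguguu
miR-29c-3p: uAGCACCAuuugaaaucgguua
miR-29b-1-5p: gCUGGUUUcauauggugguuua
miR-29b-2-5p: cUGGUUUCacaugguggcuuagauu
The 3p names shared the seed AGCACCA, and among the 573 table names with a RefSeq sequence no other name carried it. miR-29a-3p and miR-29c-3p differed by a single base over 22 compared, C10U, counted from the 5′ end with the base of miR-29a-3p first. miR-29b-3p differed from miR-29a-3p by C10U, G18A, U21G and A22U, all outside the seed. Since 1 mismatch turns miR-29a-3p into miR-29c-3p, and the number of mismatches allowed in counting is not known here, the split of reads between these names is uncertain. miR-29b-3p ends in a stretch that holds AGUGUU, starting at base 18, a hexamer known from work on the nuclear import of miR-29b. Of the 573 names, 7 (1.22%) held AGUGUU on the miRNA strand. The motifs GGAG and CCCU, described in work on the sorting of miRNAs into exosomes, were searched on the same strand. They were in 13.8% and 10.5% of the names and in none of the family's 7.

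The family comes from 4 hairpin genes in 2 pairs. In GRCm38.p6, Mir29a (chr6:31062660-31062747) and Mir29b-1 (chr6:31063023-31063093) lie on the minus strand with 275 bases between them. Mir29b-1 overlaps the last bases of an exon of the lincRNA Gm27019 on the same strand. Mir29b-2 (chr1:195037040-195037120) and Mir29c (chr1:195037547-195037634) lie on the plus strand with 426 bases between them, inside an exon of the noncoding transcript A330023F24Rik and opposite an exon of Cd46. The submitters' processing notes name mm9, so these positions describe the RefSeq hairpins and not the deposited counts. miR-29b-3p is identical in Mir29b-1 and Mir29b-2, and its counts cannot be divided between them. The 5p arms differ in sequence. miR-29b-1-5p begins 1 base earlier than miR-29b-2-5p and differs from it at 2 of 21 aligned bases, U11C and U19C. How cleanly the counting kept them apart is not known, since the mismatches it allowed are not known. The Mir29b-1 hairpin is shown because both of its arms were measured, with the 5p and then the 3p arm in capitals.
Mir29b-1: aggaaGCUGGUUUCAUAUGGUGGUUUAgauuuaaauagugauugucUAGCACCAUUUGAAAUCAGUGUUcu

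WT libraries held 12447 to 28884 counts and san:san libraries 126098 to 185901, so every san:san library was the deeper one. With trimmed mean of M values (TMM) scaling, 163 of the 254 tested names passed edgeR's quasi-likelihood test at an adjusted p under 0.05, which is 64.2%. They were 88 higher (34.6%) and 75 lower (29.5%) in san:san. Of 7 macrophage and myeloid miRNAs, all had counts in all 6 libraries, at 5.23% to 6.19% of all counts in WT and 10.4% to 12.0% in san:san, with 5 of 6 tested higher and 0 lower. Other cell types' miRNAs also moved with the genotype. The 4 erythroid names ranged over 2.68% to 4.59% in WT and 10.3% to 11.9% in san:san, with 3 higher and 0 lower. The lymphocyte miRNA miR-150-5p was at 0.409% to 0.492% and 1.38% to 1.92%, and was higher. The 2 endothelial names were both higher in the test, although their summed shares overlapped between the genotypes (1.82% to 3.69% and 3.37% to 6.96%). The 6 stromal names overlapped as a sum (0.892% to 1.39% and 0.902% to 0.980%), with 2 higher and 1 lower. The liver miRNA miR-122-5p overlapped too (0.501% to 0.699% and 0.420% to 0.580%) and did not pass. None of these names was at 0 over the 6 libraries. Their part in the miR-29 results was not tested, and fewer exosomes of a source and less miRNA per exosome cannot be told apart here.

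The passenger miR-29b-1-5p was lower in san:san by 19.1-fold, as a ratio of summed counts over summed TMM-scaled library sizes. In TMM-scaled CPM (counts scaled to a fixed library total), the guide miR-29b-3p had nearly equal means in both genotypes. Its counts pool Mir29b-1, the hairpin of miR-29b-1-5p, with Mir29b-2. The most abundant member, miR-29a-3p, and miR-29c-3p had means below those of WT but did not pass the test with TMM. Thus 1 of the 4 names was called, against 64.2% of all tested names.

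miR-29b-1-5p was counted 13, 39 and 40 times in WT replicates 1 to 3, and 10, 12 and 2 times in san:san replicates 1 to 3. Each WT library held more counts of it than any of the far deeper san:san libraries. In TMM-scaled CPM this was 915, 1095 and 1466 in WT against 63.8, 91.4 and 20.7 in san:san. The genotypes did not overlap, and san:san replicate 3 was the lowest library. Of all tested names, 31.1% were likewise lower without overlap. Its log2 change was -4.22 ± 0.39 (SE, n = 3 per genotype, edgeR adjusted p = 7.81e-07), the 24th most lowered of 254. For miR-29b-1-5p, every san:san library was below the depth-scaled threshold of the count filter. It entered the test only through WT, where it was high, so its p-value and rank are a description and not independent support. The ratio of summed counts, WT over san:san, had a 95% exact counting interval of 12.1 to 31.3, and was 28.7 (18.2 to 47.1) over library totals. Counting intervals cover counting error only. The call was the same in each of the 17 other settings in which it was tested. Log2 changes were -5.04 to -3.97, with adjusted p up to 5.35e-05 in edgeR or DESeq2. These settings draw on the same 6 libraries, and most on the same filter, so they too are a description and not independent support.

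miR-29a-3p, the most abundant guide of the family in every library, was counted 159, 333 and 238 times in WT, and 1236, 1060 and 675 times in san:san. It ranked between 18 and 25 by count in WT and between 29 and 31 in san:san. In TMM-scaled CPM it was at 11188, 9351 and 8722 in WT and 7886, 8069 and 6996 in san:san. Every san:san library was below every WT library, but the gap was small beside the spread of WT. The log2 change of -0.34 ± 0.19 (SE, 95% interval -0.75 to 0.07) did not pass in edgeR (adjusted p = 0.130).

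miR-29b-3p, which both miR-29b hairpins make, was counted 38, 80 and 65 times in WT, and 357, 330 and 242 times in san:san. In TMM-scaled CPM it was at 2674, 2246 and 2382 in WT and 2278, 2512 and 2508 in san:san, with the genotypes overlapping. Means were 2434 ± 218 and 2433 ± 134 (SD, n = 3 each). The log2 change was 0.01 ± 0.19 (95% interval -0.40 to 0.43, edgeR adjusted p = 0.952), and it was below 0 with every other scaling tried.

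miR-29c-3p, the least abundant guide, was counted 9, 27 and 29 times in WT, and 102, 103 and 58 times in san:san. It was at 633, 758 and 1063 TMM-scaled CPM in WT and 651, 784 and 601 in san:san. The genotypes overlapped, and WT replicate 3 was the highest library. The log2 change was -0.30 ± 0.26 (95% interval -0.86 to 0.26, edgeR adjusted p = 0.322).

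**Figure D1:**
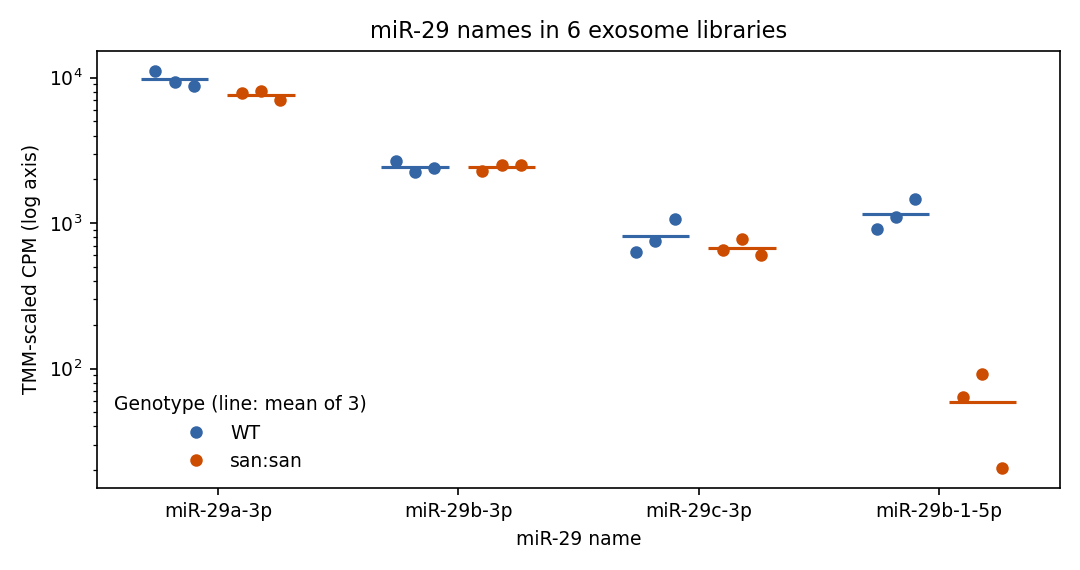
TMM-scaled CPM on a log axis for each of the 4 miR-29 names, with 1 point per library, WT in blue and san:san in orange, and a line at the mean of 3 libraries. The 3p names lie at similar heights on this axis, although each san:san point of miR-29a-3p is below each of its WT points. The san:san points of miR-29b-1-5p, 20.7 to 91.4, lie below its WT points, 915 to 1466.

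The calls of the guides changed with the scaling, and that of the passenger, a description as stated above, did not. The share of library totals, which uses no factor, was lower in san:san without overlap for each 3p name. miR-29a-3p made up 1.28%, 1.15% and 1.09% of the WT libraries, against 0.665%, 0.660% and 0.535% in san:san. miR-29b-3p made up 0.305%, 0.277% and 0.299% against 0.192%, 0.205% and 0.192%, and miR-29c-3p 0.0723%, 0.0935% and 0.133% against 0.0549%, 0.0641% and 0.0460%. Of all tested names, 42.1% were lower without overlap on this measure and 22.4% higher. Summed over the 3p names, the family made up 1.57% ± 0.0752 of the WT libraries, against 0.872% ± 0.0856 in san:san (SD, n = 3 each), a ratio of means of 1.80.

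With total counts as the library size, all 4 names passed as lower in edgeR, against 39.8% of all tested names lower. miR-29a-3p was at log2 -0.92 (adjusted p = 8.84e-04), miR-29b-3p at -0.57 (0.0219) and miR-29c-3p at -0.89 (0.0120). With relative log expression (RLE) factors, 2 of the 4 passed, miR-29b-1-5p and miR-29a-3p (log2 -0.60, adjusted p = 0.0183), against 33.9% of all tested names. The same 2 passed when the 5 most abundant names were left out of the library sizes (33.5% of all tested names lower) and in DESeq2 (32.3%). With miR-16-5p as the only reference, all 4 passed, against 43.3% of all tested names, but miR-16-5p itself was higher in san:san with TMM (log2 0.85 ± 0.20, edgeR adjusted p = 0.00231), which lowers every other name under this reference. It had 25, 74 and 62 counts in the WT libraries.

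These scalings moved the median log2 change of all tested names from 0.30 with TMM to 0.04 with RLE, -0.29 with total counts and -0.57 with miR-16-5p. A change of scaling shifts all names by about the same amount, so a member's distance from that median is nearly fixed by construction and is given as a description. Over 6 scalings, miR-29a-3p lay at -0.65 to -0.62, miR-29c-3p at -0.61 to -0.55 and miR-29b-3p at -0.28. miR-29b-1-5p lay at -4.53 to -4.47.

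**Figure D2:**
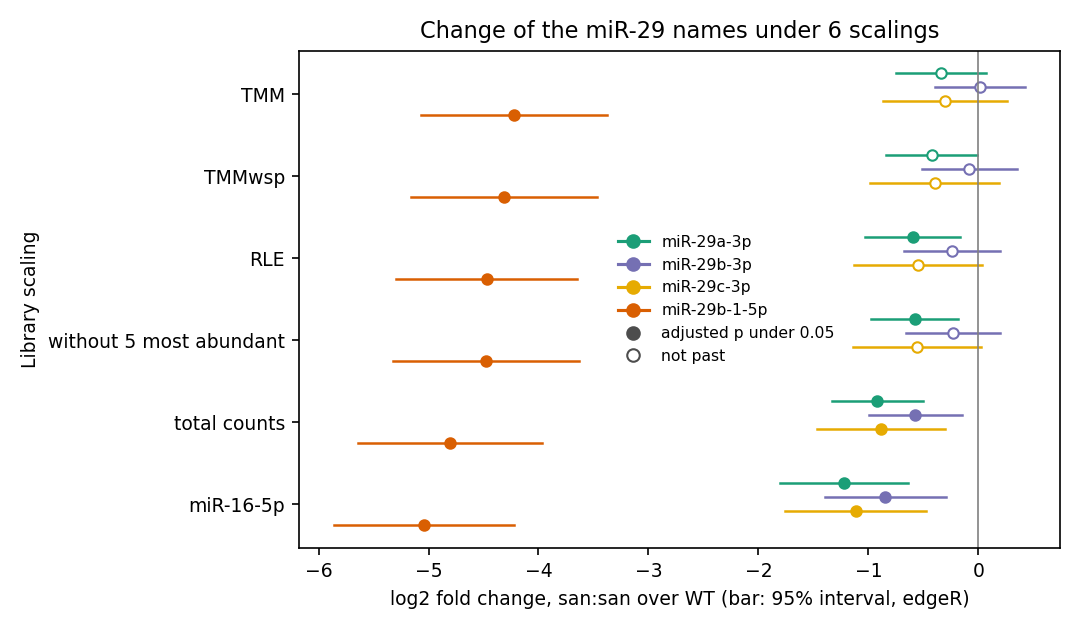
The log2 fold change of each miR-29 name, san:san over WT, under 6 ways of scaling the libraries, with 95% intervals from edgeR and filled points for an adjusted p under 0.05. From TMM to miR-16-5p the points shift to the left together, miR-29b-3p from 0.01 to -0.85 and miR-29b-1-5p from -4.22 to -5.04.

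The make-up of the family's 3p counts does not depend on any scaling. miR-29a-3p led in both genotypes, followed by miR-29b-3p and then miR-29c-3p in all 6 libraries. miR-29b-3p made up 18.4%, 18.2% and 19.6% of the 3p counts in WT, against 21.1%, 22.1% and 24.8% in san:san. Each san:san library was thus above each WT library, by 3.93 percentage points in the mean. The two-sided exact permutation test gave p = 0.1, the smallest that 3 libraries against 3 allow, and 0.2 when adjusted over the 4 share comparisons made.

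Counting error in single WT libraries was wider than this difference. The exact 95% interval was 13.4% to 24.4% in WT replicate 1, with 206 counts over the 3p names, and 19.1% to 23.1% in san:san replicate 1, with 1695. miR-29a-3p made up 77.2%, 75.7% and 71.7% in WT and 72.9%, 71.0% and 69.2% in san:san, where WT replicate 3 fell among the san:san values (exact permutation p = 0.2, adjusted 0.267). miR-29c-3p made up 4.37%, 6.14% and 8.73% in WT, a wider spread than the 5.95% to 6.90% of san:san (exact permutation p = 0.8, adjusted 0.8). Put as ratios, there were 4.18, 4.16 and 3.66 counts of miR-29a-3p per count of miR-29b-3p in WT and 3.46, 3.21 and 2.79 in san:san. The order of the guides was the same in every library, and no share comparison could reach a p under 0.1 in this exact test.

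**Figure D3:**
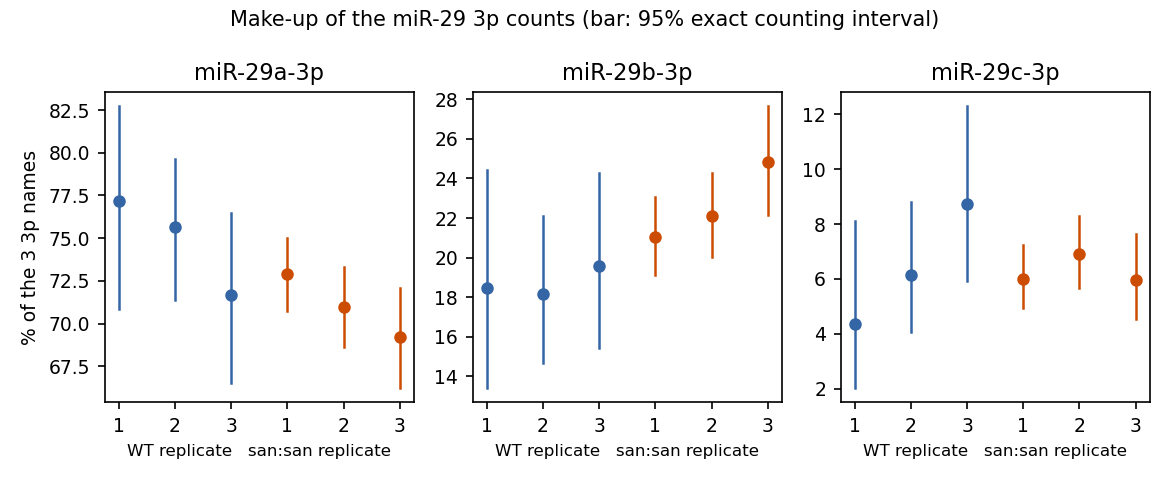
The share of each 3p name in the summed 3p counts of a library, in percent, for WT (blue) and san:san (orange) replicates, with 95% exact counting intervals; each panel has its own axis, which does not start at 0. The miR-29b-3p share is 18.2% to 19.6% in WT and 21.1% to 24.8% in san:san; the interval of WT replicate 2 ends below that of san:san replicate 3, and all other WT and san:san intervals overlap.

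The balance between passenger and guide differed between the genotypes. For every 100 counts of the guide miR-29b-3p there were 34.2, 48.8 and 61.5 counts of miR-29b-1-5p in WT, against 2.80, 3.64 and 0.826 in san:san. As a share of both names, miR-29b-1-5p was 25.5%, 32.8% and 38.1% in WT. In san:san it was 2.72%, 3.51% and 0.820%. The lowest WT value, with an exact 95% interval of 14.3% to 39.6%, lay above the interval of the highest san:san value, 1.83% to 6.05%. Means were 32.1% ± 6.33 and 2.35% ± 1.38 (SD, n = 3 each), with an exact permutation p = 0.1, the smallest possible, or 0.2 adjusted over the 4 share comparisons. The 3p count also holds the reads of Mir29b-2, so these are not the shares of a single hairpin.

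Arms were paired where their names differ only in 5p and 3p, and Mir29b-1 was added by hand. Numbered hairpins whose arms do not match in name, such as miR-125b-1, were left out, so this background is not complete. Among the 50 hairpins so chosen, with 20 or more counts over both arms in each library, the minor arm's share was lower in san:san without overlap in 10 (20%). It was higher without overlap in 12 (24%). Mir29b-1, with a ratio of mean shares of 13.7, was the third of those 10 by this ratio, after miR-328 and miR-23a. Minor arms thus differed in both directions between the genotypes. The 20 counts cover both arms together, so a minor arm can be at or near 0 counts in the shallow WT libraries. Among those higher, miR-342-5p had a mean share of 0% in WT and 0.445% in san:san. How far depth enters the 24% was not tested.

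**Figure D4:**
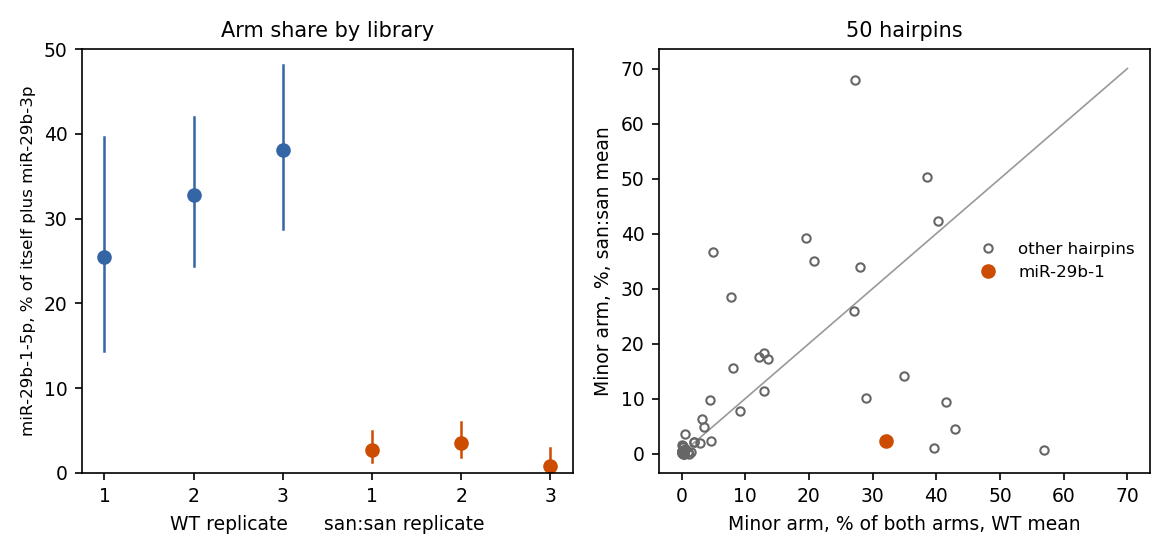
Left, miR-29b-1-5p as a percentage of its own and miR-29b-3p counts in each library, with 95% exact counting intervals. Right, the mean minor-arm share of 50 hairpins in WT and san:san, with a line of equality; the Mir29b-1 point, at 32.1% and 2.35%, lies far below the line, while other hairpins lie on both sides.

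The remaining 5p arms of the family, 3 names, were too low to enter the test. miR-29b-2-5p, from the other miR-29b hairpin, was counted 0, 1 and 2 times in WT, and 5, 8 and 0 times in san:san. Its ratio of TMM-scaled summed counts, san:san over WT, was 0.869 with a 95% exact counting interval of 0.239 to 4.75, so neither a rise nor a fall of a few fold was detectable at this depth. miR-29b-1-5p was 92 of 95 of the counts that the pair of miR-29b 5p names had in WT and 24 of 37 in san:san. san:san replicate 3 had only 2 counts over both names. How cleanly the counting split the pair is not known.

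miR-29a-5p was counted 0, 0 and 4 times in WT, and 7, 7 and 8 times in san:san, a ratio of 1.10 with an interval of 0.375 to 4.40. It made up no more than 1.65% of the miR-29a counts in any library. miR-29c-5p was counted 0, 1 and 2 times in WT, and 37, 14 and 17 times in san:san. Its ratio of TMM-scaled summed counts was 4.54 (1.49 to 22.6), and over library totals 3.03 (0.992 to 15.0), with the genotypes overlapping on the second scale. A count of 0 in WT replicate 1 allows up to 211 TMM-scaled CPM, above the 107 and 176 CPM of san:san replicates 2 and 3. Against its guide, miR-29c-5p was 0 of 9, 1 of 28 and 2 of 31 counts in WT and 37 of 139, 14 of 117 and 17 of 75 in san:san. That is 0%, 3.57% and 6.45% against 26.6%, 12.0% and 22.7%, and the exact interval of the WT library with 9 counts reached 33.6%. In TMM-scaled counts the ratios, san:san over WT, were thus 4.54 for the passenger of Mir29c, 1.10 for that of Mir29a, 0.869 for that of Mir29b-2 and 0.0523 for that of Mir29b-1. Over library totals they were 3.03, 0.734, 0.578 and 0.0348, so the direction for miR-29a-5p turned with the scaling. The difference between passengers was not tested.

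The names closest to each member in profile were found as the smallest distance between log2 TMM-scaled CPM, centred on each name's mean over the 6 libraries. For miR-29a-3p these were let-7f-5p (distance 0.32 log2 units), miR-92b-3p (0.33) and miR-23a-3p (0.34). For miR-29b-3p they were miR-92b-3p (0.38), miR-185-5p (0.38) and let-7a-5p (0.40), and for miR-29c-3p miR-674-3p (0.37), let-7d-5p (0.46) and miR-27a-3p (0.52). All these neighbours had log2 changes between -0.59 and 0.24 with TMM, and none passed in edgeR. miR-29a-3p and miR-29b-3p were 0.50 apart, more than either was from its neighbours.

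miR-29b-1-5p lay 4.89 log2 units from miR-29b-3p. Its closest names were miR-193a-5p (0.58), miR-125a-3p (1.04) and miR-130a-3p (1.13), all lower in san:san. miR-193a-5p was at 1900, 2050 and 2016 TMM-scaled CPM in WT and 89.3, 152 and 51.8 in san:san, with replicate 3 lowest as for miR-29b-1-5p. Distances over 6 libraries of 2 genotypes mostly reflect the genotype difference and the depth of the libraries, and are given as a description. Only names with a RefSeq sequence, 573 of the 707 in the count table, could be compared base by base. Among such names outside the family, the longest run of bases shared with miR-29b-1-5p was 8 of its 22, with miR-505-3p.

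Of 9 other names that repress DNA methyltransferases or matrix genes, 3 were deep enough to test, with 1 higher and 0 lower, against 34.6% higher over all tested names. Their median log2 change was 0.65, against 0.30 over all tested names. miR-26a-5p, which represses Ezh2 and matrix genes, rose from 204 ± 57.6 to 851 ± 59.0 CPM (log2 1.95 ± 0.31, edgeR adjusted p = 9.25e-05). miR-148a-3p, a repressor of DNA methyltransferases, was at log2 -1.08 ± 0.49 (adjusted p = 0.0691), and miR-26b-5p at 0.65 ± 0.38 (0.153). miR-148b-3p, miR-152-3p, miR-133a-3p and the 3 miR-200 names had 0 to 5 counts over the WT libraries. Of 5 miR-30 5p arms, a family that also represses matrix factors, 4 were tested with a median log2 change of 0.83. Of these 1 was higher and 0 lower, again against 34.6% higher over all tested names. It was miR-30c-5p (log2 1.65 ± 0.23, edgeR adjusted p = 2.87e-05). In neither list was the share called higher above that of all tested names.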

How the data were processed

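Small RNA libraries of exosomes from 3 WT and 3 Roquin-1 san:san macrophage supernatants were analysed, grouped by sample title. Trizol was used for RNA, and Illumina miRNA library procedures followed, per the labels' protocols. The submitters' processing notes name mm9. For aligner, trimming, mismatches and miRNA annotation, no source used here gives them. The authors deposited whole-number counts per mature name, and for each sample a scaled signal named TPM in its header. The deposited signal gave back the table's counts within 0.1 reads except for 1 name in WT replicate 2, and served only as an alternative scaling.

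The main test was edgeR 4.0.16 (R 4.3.3), quasi-likelihood, on the 6 libraries, with filterByExpr at a minimum count of 10, TMM factors, robust dispersions and a single genotype term. Benjamini-Hochberg adjustment ran over 254 names. For shares, exact two-sided permutation tests were used (scipy 1.17.1), with exact Clopper-Pearson 95% intervals. The count 0 was taken to allow 3 counts. Alternatives were other scalings, DESeq2 1.42.0, other count filters, merged identical rows, libraries thinned to 12447 counts (20 draws), the replicate number as a block and leaving out each library. Named miRNAs were the members, the other miR-29 names, the 3 nearest profiles of each member and the comparison lists. Members and lists were chosen with earlier results of these data known.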

Additional observations from a re-analysis of the deposited data

How the results depend on the processing

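The log2 change of miR-29b-3p, 0.01 with TMM, turned to -0.24 with RLE, -0.082 with TMMwsp factors, -0.57 with total counts, -0.23 without the 5 most abundant names, -0.85 with miR-16-5p, -0.55 with the deposited scaling (an alternative chosen after seeing the data), -0.24 in DESeq2, -0.0059 with at least 10 counts in every library, -0.012 with identical rows merged and -0.30 in thinned libraries. Without a count filter it was 0.16, and miR-29a-3p was -0.18 against -0.34, with neither passing. With 1 library left out miR-29b-3p ranged from -0.14 to 0.059. miR-29a-3p passed as lower with RLE (-0.60), total counts (-0.92), without the 5 most abundant names (-0.58), with miR-16-5p (-1.22), with the deposited scaling (-0.90), in DESeq2 (-0.60) and in thinned libraries (-0.64). miR-29c-3p passed with total counts (-0.89), miR-16-5p (-1.11) and the deposited scaling (-0.87). With a library left out, miR-29a-3p ranged from -0.46 to -0.33, miR-29c-3p from -0.49 to -0.071 and miR-29b-1-5p from -4.59 to -3.97, and none of these changed a call. The miR-29c-3p share difference, -0.125 percentage points, was 0.0415 in thinned libraries and ranged from -1.15 to 1.04 with a library left out. Over all names, 49 were higher with total counts, 31 with miR-16-5p, 50 with the deposited scaling, 35 with at least 10 counts in every library (31 lower) and 36.5 in thinned libraries (45 lower), against 88 higher and 75 lower. At least 10 counts in every library removed miR-29c-3p and miR-29b-1-5p, and thinning removed miR-29c-3p, from the test.

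Whether replicate numbers pair the samples is not known. Deviations from the group means, over 254 names, correlated at 0.10, -0.079 and 0.26 between same-numbered libraries. Between libraries of different numbers they correlated at -0.21 to 0.15. So few libraries cannot settle the question. With the replicate number as a block, miR-29b-1-5p was at -4.19, miR-29a-3p at -0.34, miR-29b-3p at 0.012 and miR-29c-3p at -0.27, with no call changed, and 90 names were higher and 71 lower. The shallow WT libraries limit every value of the passenger arms, since 1 count was worth 28.1 to 70.4 TMM-scaled CPM there and 6.38 to 10.4 in san:san.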
